A study of Mus musculus with 7 samples.

Results

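Of the 113820 regions of accessible chromatin in the deposited ATAC-seq table, 754 had a higher density in every library of lung CD4+ T cells, of both reporter types, than in IL-4+ cells of the mediastinal lymph node (LN) 8 days after infection with *Nippostrongylus brasiliensis*. They were selected on the table's own log2 values. The lowest of the 5 lung libraries had to exceed the highest of the 2 LN libraries by at least 1. The mean of the 5 lung libraries also had to reach 2.32, a density of 5 normalized transposase insertions per kb and 1e6 insertions. The lung against LN difference of these regions, called members from here on, is therefore given as a description. A further 191 regions had the same margin but a lower lung mean. All libraries came from C57BL/6 mice given 500 L3 larvae under the skin and held 50000 sorted CD4+ T cells each. IL-4+ cells were the GFP+ cells of IL-4-4get reporter mice, from the LN (n = 2) or the lung (n = 3), and IFN-gamma+ cells were the YFP+ cells of IFN-gamma GREAT reporter mice, from the lung (n = 2). IFN-gamma+ cells of the LN and cells of uninfected mice were not analysed here, so tissue and cell state cannot be told apart. The 2 lung populations also differ in reporter line, and the reporter alleles sit in *Il4* and *Ifng* themselves.

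In ATAC-seq a transposase inserts adapters into DNA that is not packed into nucleosomes, so that the insertion density of a region follows how open it is. Promoters of active genes and distal enhancers are the main classes of open region, and enhancers differ more between cell states than promoters do. IL-4+ T cells of the LN include follicular helper cells, which stay near B cells. Effector T helper cells that enter the lung are known to carry receptors for IL-33 and IL-18, chemokine receptors and integrins that LN cells lack. Runx, T-box, GATA and AP-1 factors bind many of the enhancers of effector T cells, while Tcf7 binds those of stem-like and follicular helper cells.

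The libraries held between 14005923 and 91681969 insertions, rebuilt from the ranks of the tied values and therefore lower bounds. Over the members, the median rebuilt count of a region was lowest in LN replicate 1, at 69, and highest in lung IFN-gamma+ replicate 2, at 798. LN replicate 1 and lung IL-4+ replicates 2 and 3 had a narrower spread of counts over regions than the other libraries, so that each of the LN and the lung held libraries of both spread classes. All 7 T cell marker genes had a promoter region, with summed normalized insertions of 395 to 666 per library. None of the genes on lists for other cell types had a member. These were lists for CD8 T, B, myeloid, NK, regulatory T, epithelial, endothelial and erythroid cells and for basophils, mast cells and eosinophils together. The last list had a promoter region at 0 of 6 genes and the B cell list at 1 of 6, so these say little. Of the NK genes, *Klre1* had summed normalized insertions of 3.32 to 4.32 in the lung libraries and 2.41 and 1.77 in the LN. *Klrb1c* had 2.39 to 6.09 in the lung and 4.12 and 2.91 in the LN, and *Ncr1* had no promoter region. The part of NK cells in these values was not tested. Summed over the 5 of 8 myeloid marker genes with a promoter region, the normalized insertions were 95 to 116 in the LN libraries and 61.7 to 85.1 in the lung libraries. *Cebpa* made up most of the LN sums, with 66.5 and 59.5 there and 26.3 to 31.1 in the lung. *Itgam*, at 1.14 and 0.717 in the LN, was higher in lung IFN-gamma+ cells, at 3.12 and 2.16. *Itgax* was too, at 1.95 and 0.603 in the LN and 4.01 and 3.22 in lung IFN-gamma+ cells. *Csf1r*, *Lyz2* and *Spi1* had no promoter region.

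The sequences of 11 members are shown because they hold, or lack, the motifs that the later comparisons turn on. Each is the central 200 bases of a member on the plus strand of GRCm38/mm10, read from the RefSeq assembly GRCm38.p6. Capitals mark the AP-1 letters TGACTCA. They also mark the Runx letters AACCACA, and the GATA letters AGATAA, and would mark the T-box letters that are spelled out with the motif shares. Either strand counts, so that reverse complements are in capitals too. The members by *Il5*, *Il18r1*, *Runx2*, *Pparg*, *Lgals3* and *Klrg1* lie at genes of effector lymphocytes. Those at *Gcnt1*, *Capn8* and *Map2k5* had margins among the 10 largest, and those at *Ifng* and by *Adgre5* were higher in IFN-gamma+ than in IL-4+ lung cells.
Il5, chr11:53726709-53726908: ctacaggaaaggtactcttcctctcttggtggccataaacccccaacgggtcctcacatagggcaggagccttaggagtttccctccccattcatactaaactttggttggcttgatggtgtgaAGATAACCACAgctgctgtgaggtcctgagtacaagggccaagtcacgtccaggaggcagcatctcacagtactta
Il18r1, chr1:40467375-40467574: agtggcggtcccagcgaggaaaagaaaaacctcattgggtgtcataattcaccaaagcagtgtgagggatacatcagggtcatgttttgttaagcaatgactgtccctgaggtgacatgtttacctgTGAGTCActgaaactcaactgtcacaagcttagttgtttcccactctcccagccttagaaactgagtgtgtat
Runx2, chr17:44609049-44609248: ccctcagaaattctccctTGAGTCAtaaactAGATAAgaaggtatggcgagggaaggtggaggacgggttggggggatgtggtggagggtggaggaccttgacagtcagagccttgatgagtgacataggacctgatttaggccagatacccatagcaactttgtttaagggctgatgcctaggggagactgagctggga
Pparg, chr6:115440644-115440843: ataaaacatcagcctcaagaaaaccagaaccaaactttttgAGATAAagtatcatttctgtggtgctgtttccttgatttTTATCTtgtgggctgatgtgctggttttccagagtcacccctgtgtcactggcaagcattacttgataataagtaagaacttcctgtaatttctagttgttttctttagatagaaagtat
Lgals3, chr14:47371763-47371962: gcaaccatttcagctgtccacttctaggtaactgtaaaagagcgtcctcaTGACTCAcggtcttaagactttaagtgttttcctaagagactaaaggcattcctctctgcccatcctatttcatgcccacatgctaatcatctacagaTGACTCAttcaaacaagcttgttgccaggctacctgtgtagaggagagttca
Klrg1, chr6:122270219-122270418: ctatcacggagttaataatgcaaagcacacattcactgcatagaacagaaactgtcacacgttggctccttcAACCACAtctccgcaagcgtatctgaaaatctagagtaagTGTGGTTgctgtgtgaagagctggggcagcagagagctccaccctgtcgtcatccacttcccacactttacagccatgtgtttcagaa
Gcnt1, chr19:17335001-17335200: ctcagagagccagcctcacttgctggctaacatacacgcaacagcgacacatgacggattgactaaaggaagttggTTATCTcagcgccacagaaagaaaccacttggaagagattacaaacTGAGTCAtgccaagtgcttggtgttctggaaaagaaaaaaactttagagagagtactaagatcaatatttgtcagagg
Capn8, chr1:182543275-182543474: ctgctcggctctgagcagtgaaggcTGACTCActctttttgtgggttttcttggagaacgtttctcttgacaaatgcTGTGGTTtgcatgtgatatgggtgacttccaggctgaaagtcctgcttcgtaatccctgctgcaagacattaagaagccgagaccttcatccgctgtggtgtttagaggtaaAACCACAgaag
Map2k5, chr9:63275197-63275396: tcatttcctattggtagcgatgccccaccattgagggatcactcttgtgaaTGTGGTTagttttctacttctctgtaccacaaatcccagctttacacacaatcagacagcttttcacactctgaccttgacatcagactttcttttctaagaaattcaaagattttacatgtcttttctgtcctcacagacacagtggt
Ifng, chr10:118440813-118441012: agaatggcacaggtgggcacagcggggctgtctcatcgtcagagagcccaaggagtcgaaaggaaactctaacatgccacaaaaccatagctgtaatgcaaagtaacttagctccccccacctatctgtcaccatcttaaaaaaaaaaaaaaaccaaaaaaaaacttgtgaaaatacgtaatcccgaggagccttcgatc
Adgre5, chr8:83758407-83758606: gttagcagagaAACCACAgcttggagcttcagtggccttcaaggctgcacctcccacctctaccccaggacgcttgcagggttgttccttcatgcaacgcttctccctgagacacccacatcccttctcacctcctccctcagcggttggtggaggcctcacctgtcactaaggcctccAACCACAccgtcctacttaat
The window by *Capn8* held 1 AP-1 and 2 Runx matches, and that by *Il5* held a GATA and a Runx match that share bases. The *Lgals3* window held 2 AP-1 matches and the *Klrg1* window 2 Runx matches. No AP-1, Runx, T-box or GATA letters stood in the central bases of the *Ifng* member.

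Across the members, the median log2 density was 1.44 and 1.72 in LN replicates 1 and 2, between 3.43 and 3.73 in the 3 lung IL-4+ libraries, and 3.67 and 3.74 in the lung IFN-gamma+ libraries. The members were thus about equally open in both lung populations at the median. The margin had a median of 1.24 and reached 2.95, and it was at least 2 in 39 members. Members were not all open in every lung library or all closed in the LN. All 5 lung libraries stood at a density of 5 or more in 617 members (81.8%), so that in the others at least 1 lung library was below it. Both LN libraries were below a density of 5 in 516 members (68.4%), compared with 10.3% of the 45769 regions whose lung mean reached that density, called lung-accessible regions below. In the other 238 members (31.6%) at least 1 LN library stood at 5 or more, and in 148 both did. In a sorted population, fewer cells with an open region and less opening per cell cannot be told apart.

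**Figure D1:**
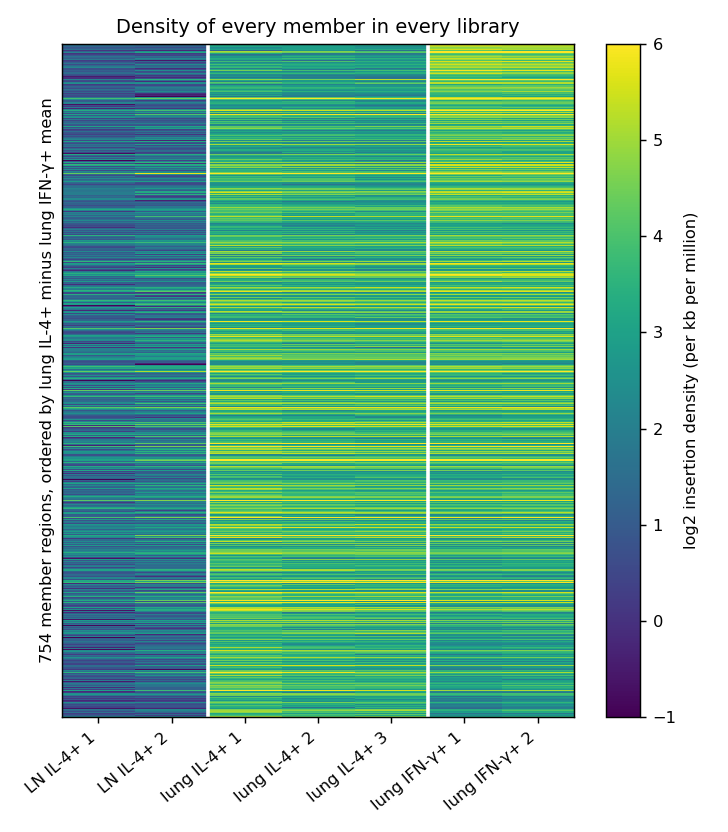
Log2 insertion density (per kb and 1e6 insertions, colour, shown between -1 and 6) of the 754 members (rows) in the 7 libraries (columns), ordered by the lung IL-4+ minus the lung IFN-gamma+ mean, with the most IFN-gamma+ at the top. The LN columns are darker throughout because the members were chosen for it, and the 2 lung populations differ most at the top rows.

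Because the rule used every library, its hold was examined by choosing regions without 1 library and then reading that library. Without lung IFN-gamma+ replicate 2, 771 regions were chosen, and in 96.6% of them the left-out library stood above the LN libraries by the margin or more, compared with 7.28% of lung-accessible regions. Leaving out each of the other 4 lung libraries gave between 65.4% (lung IL-4+ replicate 3) and 89.2% (lung IL-4+ replicate 1), against 4.53% to 7.18% of lung-accessible regions. The left-out lung library was read against the same LN libraries that chose the regions, so part of these shares follows from the choice. The shares were lower for the LN libraries, where leaving 1 out leaves a lone LN library to choose by. They do not show whether the LN libraries differ more than the lung libraries do. Of 1457 regions chosen without LN replicate 1, that library was lower by the margin in 51.8% and lower at all in 87.8%. Of 3110 regions chosen without LN replicate 2, it was lower by the margin in 24.2% and lower at all in 73.8%, while 3.18% and 24.6% of lung-accessible regions were. LN replicate 2 was the higher LN library in 482 members (63.9%) and in 59.7% of lung-accessible regions.

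Members lay away from promoters. A region reaching to within 1 kb of the start of a protein-coding gene was counted as a promoter, and 31 members (4.11%) were promoters, against 32.5% of lung-accessible regions and 18.7% of all regions. Of the rest, 329 members (43.6%) lay in introns, 338 (44.8%) between genes and 56 (7.43%) over exons. The median distance from a member to the nearest start was 25340 bp, compared with 8586 bp over lung-accessible regions and 20392 bp over those outside promoters. The mirror set, 877 regions whose LN libraries exceeded all lung libraries by the same margin and floor, was also distal, with 2.74% at promoters and a median distance of 36030 bp. Members stood close to each other. A neighbouring member lay within 10 kb of 208 members (27.6%), compared with 89 (10.1%) of the mirror set.

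The 31 promoter members belonged to 30 genes, and the 5 with the largest margins were at *Gcnt1*, *Lilr4b*, *Ifng*, *Gzmb* and *Serpina3f*. *Gcnt1* encodes the glycosyltransferase that makes selectin ligands on effector T cells. Its promoter member (chr19:17334837-17335364) had log2 densities of 0.31 and 0.95 in the LN libraries, 4.03, 3.57 and 3.85 in lung IL-4+ and 3.60 and 3.74 in lung IFN-gamma+ cells. Every lung library was above every LN library by 2.63 or more and the lung populations overlapped. At *Gzmb*, which encodes the cytotoxic protease granzyme B, the promoter member (chr14:56261913-56262618) had log2 densities of 1.44 and 1.58 in the LN, 3.53, 3.86 and 3.94 in lung IL-4+ cells and 4.04 and 4.34 in lung IFN-gamma+ cells. Lung IL-4+ cells thus had an open granzyme B promoter, with a difference from IFN-gamma+ cells of -0.42 (standard error 0.25, limma adjusted p = 0.444). *Lilr4b* encodes an immunoglobulin-like receptor also used by myeloid cells. Its promoter (chr10:51480299-51481971) had log2 densities of 1.05 and 1.54 in the LN, 3.89, 3.71 and 4.07 in lung IL-4+ cells and 3.75 and 3.74 in lung IFN-gamma+ cells. The part of myeloid cells in these values was not tested. *Serpina3f*, a serine protease inhibitor gene, had lower values, with -0.09 and 0.01 in the LN and 1.91 to 3.02 over the lung libraries. Other promoter members, named after their values were seen, were those of *Il1rl1*, *Il5*, *Ccr1*, *Ccr2*, *Klrk1*, *Havcr2*, *Tnfrsf9*, *Lmna* and *Ctsw*.

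**Figure D2:**
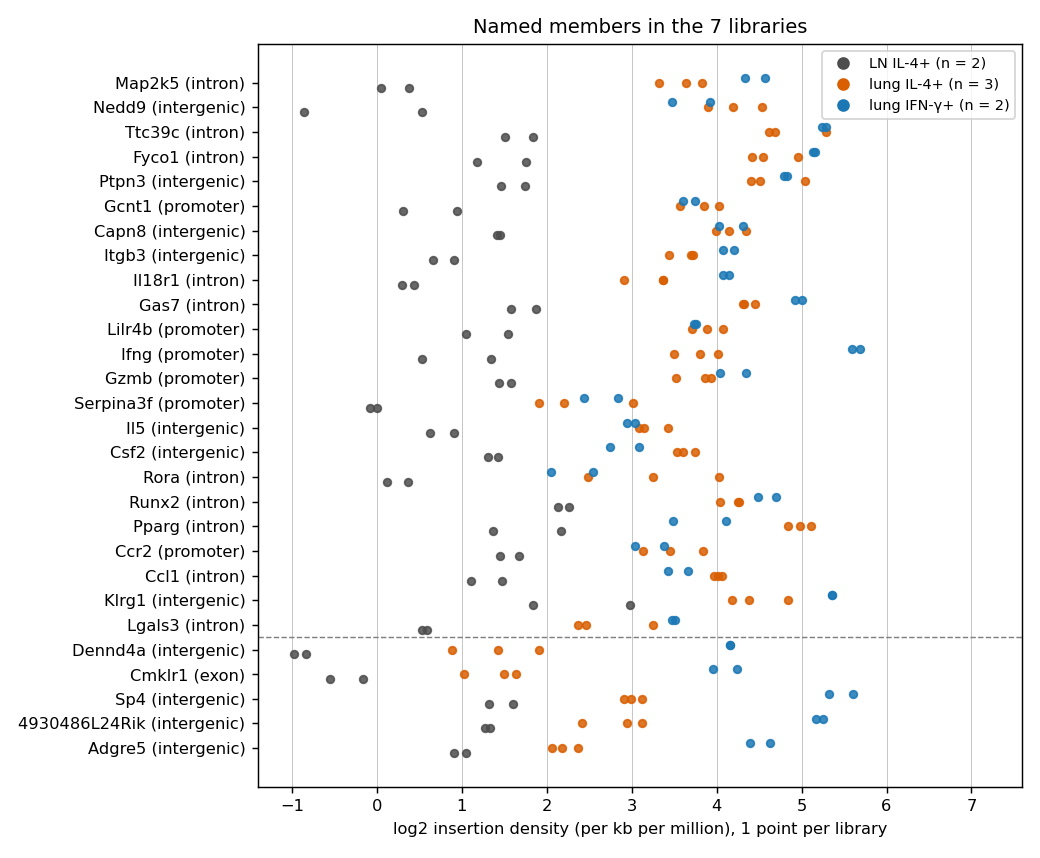
Log2 insertion density (per kb and 1e6 insertions, x axis) of named members (rows, with the kind of site), 1 point per library for LN IL-4+ (n = 2, grey), lung IL-4+ (n = 3, orange) and lung IFN-gamma+ cells (n = 2, blue). In every row all lung points lie to the right of the LN points by at least 1, and below the dashed line the 5 members by Dennd4a, Cmklr1, Sp4, 4930486L24Rik and Adgre5 have the lung IFN-gamma+ points to the right of the lung IL-4+ points.

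The largest margin, 2.95, was found in an intron of *Map2k5* (chr9:63275064-63275529), a gene for a MAP kinase kinase. Its log2 densities were 0.37 and 0.05 in the LN, 3.32, 3.82 and 3.64 in lung IL-4+ cells and 4.34 and 4.57 in lung IFN-gamma+ cells. A member 26091 bp from the start of *Nedd9* (chr13:41513080-41513687), which encodes a scaffold protein for cell migration, had the next largest margin. It read -0.85 and 0.53 in the LN, 4.53, 4.19 and 3.9 in lung IL-4+ cells and 3.48 and 3.93 in lung IFN-gamma+ cells. The other members with the 10 largest margins lay at *Ttc39c*, *Fyco1*, *Ptpn3*, *Gcnt1*, *Capn8*, *Itgb3*, *Il18r1* and *Gas7*, with margins from 2.43 to 2.79. In none of these 10 did limma call a difference between the lung populations. Of all members 3.58% were called higher in IFN-gamma+ cells and 0.0% higher in IL-4+ cells, against 0.387% and 0.108% of all regions. Few or no calls would fall among 10 regions at such shares, so this is not read as likeness.

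Protein-coding genes with a member in the gene body or 10 kb on either side numbered 448, of which 31 had at least 3 members and 27 also had a region of the mirror set, while 259 members lay at no gene by this measure. *Rora*, which encodes a nuclear receptor of type 2 lymphocytes, had the most, with 8 of its 38 lung-accessible regions. *Itgb3*, the integrin beta 3 chain, had 6 of 13. *Fyco1*, which lies within a cluster of chemokine receptor genes and encodes an adaptor for vesicle transport, had 5 of 14. *Pik3r5*, a regulatory subunit of phosphoinositide 3-kinase gamma, had 5 of 13. *Acsbg1*, *Gas7*, *Gm20388*, *Hrh4*, *Il1rl1* and *Smad3* had 4 each, as did *Sv2c* and *Wwox*. *Gm20388* is a gene model of 4434882 bp with 248 lung-accessible regions, so its 4 members are a small share.

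The longest run of members lay over the IL-1 receptor family genes on chromosome 1. *Il1rl1* encodes ST2, the receptor for the alarmin IL-33, and *Il18r1* and *Il18rap* encode the chains of the IL-18 receptor. Between positions 40380056 and 40529947 there were 14 members among 31 lung-accessible regions. The LN mean of these members was between -0.92 and 3.08, the lung IL-4+ mean between 1.76 and 4.85 and the lung IFN-gamma+ mean between 1.98 and 4.97. The member with the largest margin, in an intron of *Il18r1* 1469 bp from its start (chr1:40467239-40467711), read 0.29 and 0.44 in the LN, 3.37, 3.37 and 2.91 in lung IL-4+ cells and 4.14 and 4.08 in lung IFN-gamma+ cells. Not every member there behaved alike between the lung populations. The lung IL-4+ minus IFN-gamma+ difference ran from -1.86 to 1.25 with a median of -0.03. An intergenic member 43255 bp from the nearest *Il1rl1* start was called higher in IFN-gamma+ cells (difference -1.86, standard error 0.33, adjusted p = 0.0413). The *Il1rl1* promoter member leaned the other way without passing the test (difference 1.22, standard error 0.34, adjusted p = 0.155). These values cover members only, and the rule leaves out regions where IFN-gamma+ cells stay near the LN level. Nearly all other regions between -68.03 and -3.33 kb from the *Il18r1* start had a higher mean in lung IL-4+ cells. At -40.0 kb the lung means were 4.52 in IL-4+ and 2.71 in IFN-gamma+ cells. Beyond *Il18r1* some went the other way, with 0.92 and 2.87 at 39.24 kb.

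**Figure D3:**
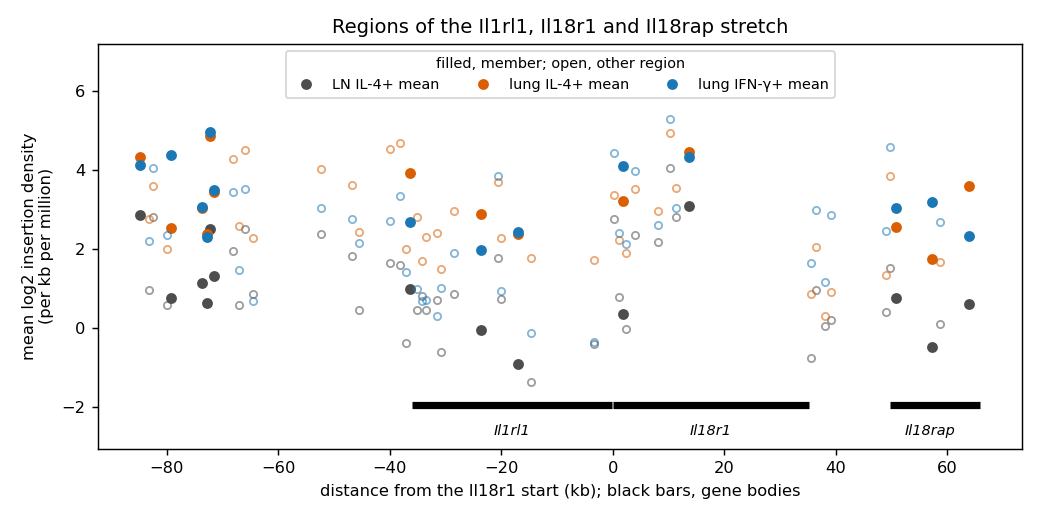
Mean log2 insertion density (per kb and 1e6 insertions, y axis) of every region in the stretch with most members, by distance in kb from the Il18r1 start (x axis), for LN IL-4+ (grey), lung IL-4+ (orange) and lung IFN-gamma+ cells (blue), with members filled, other regions open and gene bodies as black bars. The 14 members lie upstream of Il1rl1, within Il1rl1 and Il18r1, and over Il18rap.

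Other runs of members, joined where neighbours lay within 50 kb, stood at *Lilr4b* and *Lilrb4a* (6 members of 6 lung-accessible regions), at *Itgb3* (6 of 13), between *Smim20* and *Rbpj* (6 of 11), at *Pik3r5* (5 of 9), by *Smndc1* (5 of 6), by *Asprv1* and *Pcbp1* (5 of 14), by *Bhlhe40* (5 of 7) and over *Fyco1* (5 of 6). In the *Itgb3* run the lung populations lay within 0.52 of each other in all 6 members, and in the *Fyco1* run within 0.51 in all 5. The *Smndc1* run had a wider spread, from -1.62 to 0.48, and held 1 member called higher in IFN-gamma+ cells. In all 4 lung-accessible regions of a run within *Gas7* and in all 4 of another by *Ets2* and *Psmg1* the region was a member.

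A set of 214 genes in 16 lists of T cell function was used to describe what the members lie at. Of the 754 members, 65 (8.62%) lay at a listed gene, compared with 1.71% of the mirror set and 2.84% of lung-accessible regions. The lists were drawn up with earlier results of these data known, so the share is not independent evidence about them. Members made up 1.65% of all lung-accessible regions, and shares per list below are read beside that value.

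Among receptors for IL-1 family cytokines, 3 of 7 genes had members, which were 8 of their 31 lung-accessible regions (25.8%). Among cytokines, 5 of 18 genes had members, *Il5*, *Csf2*, *Ifng*, *Il3* and *Il10*, with 7 of 52 regions (13.5%). *Il5* encodes the growth factor of eosinophils and had 3 members. The member with the largest margin, 6015 bp from its start (chr11:53726580-53727038), read 0.62 and 0.91 in the LN, 3.09, 3.43 and 3.14 in lung IL-4+ cells and 2.95 and 3.04 in lung IFN-gamma+ cells. All lung libraries stood at least 2.04 above the LN, and the difference between the lung populations was 0.22 (standard error 0.30, adjusted p = 0.731). By *Csf2*, which encodes GM-CSF, a member (chr11:54239851-54240438) read 1.31 and 1.43 in the LN, 3.61, 3.75 and 3.53 in lung IL-4+ cells and 2.74 and 3.09 in lung IFN-gamma+ cells. There the lung IL-4+ libraries were all above the IFN-gamma+ libraries, by a mean of 0.71 that did not pass the test (adjusted p = 0.28). The *Il10* member (chr1:131025655-131027024), by the gene of an anti-inflammatory cytokine, was already at 2.53 and 2.96 in the LN and lay between 4.34 and 4.48 in the lung.

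Of 18 effector and residency transcription factor genes, 9 had members, which were 18 of 194 lung-accessible regions (9.28%). They were *Rora* with 8, *Runx2* with 3, and *Pparg*, *Tbx21*, *Runx1*, *Runx3*, *Zfp683*, *Bhlhe40* and *Zeb2* with 1 each. *Runx2* encodes a Runt factor. Its intronic member (chr17:44608572-44609725) read 2.14 and 2.26 in the LN, 4.25, 4.26 and 4.04 in lung IL-4+ cells and 4.70 and 4.48 in lung IFN-gamma+ cells. *Pparg* encodes a lipid-sensing nuclear receptor of type 2 T cells. The member in its intron (chr6:115440497-115440990) read 1.36 and 2.17 in the LN, 4.98, 4.84 and 5.11 in lung IL-4+ cells and 3.48 and 4.10 in lung IFN-gamma+ cells. It was open in both lung populations and 1.18 higher in IL-4+ cells, a difference that did not pass the test (adjusted p = 0.111). The *Rora* member with the largest margin (chr9:68969371-68969782) varied more among lung IL-4+ libraries, at 4.03, 2.49 and 3.25, with 0.12 and 0.37 in the LN and 2.05 and 2.54 in lung IFN-gamma+ cells. *Bhlhe40* encodes a repressor that sustains cytokine production, and the LN libraries differed there (chr6:108671894-108672530), at 1.98 and 3.43, while the lung libraries lay between 4.49 and 5.35.

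Chemokine receptor genes with a member were *Ccr1*, *Ccr2*, *Ccr3*, *Ccr9*, *Cxcr6* and *Xcr1*, 6 of 15, with 6 of 96 regions (6.25%). Chemokine receptors guide migrating cells, and all 6 genes lie in the same cluster on chromosome 9. Members count here through the flank of 10 kb too, so they may lie within a neighbouring gene such as *Fyco1*. At the *Ccr2* promoter (chr9:124101715-124103728) the LN libraries read 1.67 and 1.45, lung IL-4+ cells 3.13, 3.45 and 3.84 and lung IFN-gamma+ cells 3.38 and 3.04. *Ccl1*, the gene of a chemokine for CCR8, had both members of the chemokine list, 2 of 26 regions (7.69%). Its gene model spans 129034 bp, and the member with the larger margin lies in an intron, 23935 bp from the nearest start. The one with the larger margin (chr11:82203223-82204271) read 1.11 and 1.47 in the LN, 3.97, 4.06 and 4.01 in lung IL-4+ cells and 3.66 and 3.42 in lung IFN-gamma+ cells. Integrin genes with a member were *Itgb3*, *Itga1* and *Itga2*, 3 of 13. Upstream of *Itgb3* (chr11:104599625-104600071) the values were 0.66 and 0.91 in the LN, 3.70, 3.44 and 3.72 in lung IL-4+ cells and 4.2 and 4.07 in lung IFN-gamma+ cells. The list of tissue egress and LN homing genes had members at *S1pr4* alone, which were 3 of 53 regions (5.66%). These 3 lie within the neighbouring gene *Gna15* and count for *S1pr4* through the flank of 10 kb.

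Cytotoxic and killer lectin-like genes had a member at *Gzmb*, *Klrg1*, *Klrk1* and *Nkg7*, 4 of 13, which were 4 of 43 regions (9.30%). *Klrg1* encodes an inhibitory receptor of terminal effector cells. Its member (chr6:122270091-122270547) read 1.84 and 2.98 in the LN, 4.83, 4.38 and 4.18 in lung IL-4+ cells and 5.36 and 5.36 in lung IFN-gamma+ cells. The median lung IL-4+ minus IFN-gamma+ difference of these 4 members was -0.96. Limma called none of them, where it called 3.58% of all members higher in IFN-gamma+ cells. Among costimulatory and inhibitory receptors, *Havcr2* had 2 members and *Pdcd1lg2* and *Tnfrsf9* had 1 each, 4 of 120 regions (3.33%). *Havcr2* encodes TIM-3, and its promoter member (chr11:46454315-46455144) read 2.42 and 2.5 in the LN, 4.66, 4.64 and 4.33 in lung IL-4+ cells and 4.60 and 4.5 in lung IFN-gamma+ cells. *Stat4*, *Alox5ap* and *Lgals3* were the genes with members in the lists of STAT and SOCS genes (1 of 75 regions), of prostaglandin and lipid mediators (1 of 23) and of migration and cytoskeleton (2 of 71). *Lgals3* encodes the lectin galectin-3. Its intronic member (chr14:47371652-47372074), whose sequence is given above, read 0.59 and 0.54 in the LN, 3.25, 2.37 and 2.46 in lung IL-4+ cells and 3.51 and 3.47 in lung IFN-gamma+ cells.

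Some lists had no member or nearly none. As members made up 1.65% of all lung-accessible regions, few would fall in lists of this size. The low counts are near that share and are not read as a lack. No member lay at the 16 AP-1 and related bZIP factor genes (0 of 102 lung-accessible regions). The same held for the 17 listed cytokine receptor genes (0 of 103) and the 18 listed genes of the NF-kappaB and TNF family (0 of 113). Related genes with members stood on other lists, such as *Il1rl1*, *Il18r1*, *Il18rap* and *Tnfrsf9*, or, like *Tnfsf10*, on none. These counts therefore hold for the listed genes, not for all cytokine receptor or TNF family genes. Among 15 follicular helper and stem-like genes, *Pou2af1* alone had a member, 1 of 95 regions (1.05%), whereas 6 of these genes had 8 regions of the mirror set. The *Pou2af1* member (chr9:51207319-51207730) read 0.55 and -0.05 in the LN and 2.35 to 3.07 in the lung libraries.

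The difference between the lung populations was not fixed by the rule, although the rule sets a lower bound for every lung library. It was tested with limma over all 113820 regions, and a region was called where the fold change reached 3 and the adjusted p was under 0.05. Among the members, 27 (3.58%) were called higher in IFN-gamma+ than in IL-4+ lung cells, compared with 0.387% of all regions and 0.767% of lung-accessible regions. No member was called higher in lung IL-4+ cells, where 0.108% of all regions and 0.19% of lung-accessible regions were. At these shares few or no calls would fall among 754 regions, so this 0 alone is not read as a lack. With p values left unadjusted, the same thresholds in limma gave 37 members higher in IFN-gamma+ and 0 higher in IL-4+ cells, and 1.93% and 1.44% of all regions. The largest difference toward IL-4+ cells was 1.28, below the threshold of a fold change of 3. With the spread class of the libraries as a covariate, 2 members were called higher in IL-4+ cells, as were 0.501% of all regions. All lung IL-4+ libraries lay above both IFN-gamma+ libraries in 148 members (19.6%, against 19.4% of all regions) and below both in 257 (34.1%, against 21.2% of all and 29.7% of lung-accessible regions). The median difference was -0.05, and in 462 members (61.3%) the lung means lay within 0.5 of each other, compared with 66.2% of lung-accessible regions.

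**Figure D4:**
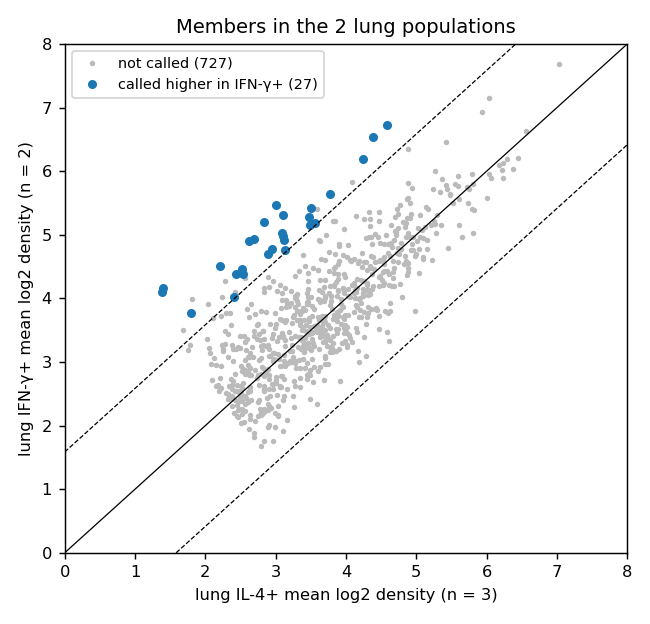
Mean log2 insertion density (per kb and 1e6 insertions) of the 754 members in lung IFN-gamma+ (n = 2, y axis) against lung IL-4+ cells (n = 3, x axis), with the line of equality solid, fold changes of 3 dashed and the 27 called members in blue. Most members lie near the solid line, and all called members lie above the upper dashed line.

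The 27 calls rest on few libraries. They became 0 when either lung IFN-gamma+ library or lung IL-4+ replicate 2 was left out, 4 without lung IL-4+ replicate 3, and between 31 and 36 without any other library. Over all regions, the share called was also 0.0% without either IFN-gamma+ library, 0.000879% without lung IL-4+ replicate 2 and 0.0351% without replicate 3. The differences themselves moved less, from -3.00 to -2.49 at the member by *Dennd4a* and from -2.59 to -2.31 at that by *Sp4* over the fits with a library left out. Leaving out an IFN-gamma+ library leaves that population with a lone library, which is then assumed to vary like the others. Lung IL-4+ replicates 2 and 3 belong to the narrow spread class and both IFN-gamma+ libraries to the wide class. With the spread class as a covariate, 29 members were called higher in IFN-gamma+ cells, as were 0.655% of all regions.

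The 5 called members with the largest differences lay by *Dennd4a*, *Cmklr1*, *Sp4*, *4930486L24Rik* and *Adgre5*. The member 18150 bp from *Dennd4a* (chr9:64792793-64793587) read -0.98 and -0.83 in the LN, 1.43, 1.9 and 0.88 in lung IL-4+ cells and 4.15 and 4.16 in lung IFN-gamma+ cells. The lung IL-4+ minus IFN-gamma+ difference was -2.75 (standard error 0.45, adjusted p = 0.0315), and lung IL-4+ cells were above the LN, as the rule requires. *Cmklr1* encodes the receptor for the chemoattractant chemerin, and an exonic member there (chr5:113612992-113613401) read -0.17 and -0.55 in the LN, 1.5, 1.03 and 1.64 in lung IL-4+ cells and 4.24 and 3.95 in lung IFN-gamma+ cells. By *Adgre5*, which encodes the adhesion receptor CD97, the member (chr8:83758301-83758713) read 1.04 and 0.91 in the LN, 2.06, 2.37 and 2.17 in lung IL-4+ cells and 4.63 and 4.39 in lung IFN-gamma+ cells. Its difference was -2.31 (adjusted p = 0.0158).

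At the *Ifng* promoter (chr10:118440693-118441133) the member read 0.53 and 1.34 in the LN, 3.81, 4.02 and 3.5 in lung IL-4+ cells and 5.6 and 5.69 in lung IFN-gamma+ cells. *Ifng* encodes the signature cytokine of type 1 helper cells. The 3 populations did not overlap, with lung IL-4+ cells between the others, and the lung difference was -1.87 (standard error 0.29, adjusted p = 0.0247). The reporter allele of the IFN-gamma+ mice lies in this gene, so allele and population cannot be told apart here. Over the 27 called members, the median difference from the LN mean was 1.61 in lung IL-4+ cells and 3.62 in lung IFN-gamma+ cells. Others of the 27, named after their values were seen, lay 6093 bp from the start of *Zfp683*, 7034 bp from that of *Klri2* and 5852 bp from that of *Tnfsf10*.

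Sequence features were not used by the rule. The central 200 bases of each member were searched for 18 short motifs on both strands, and a match describes letters, not binding. AP-1 letters (TGACTCA) stood in 163 members (21.6%, 95% exact binomial interval 18.7 to 24.7), compared with 7.75% of the mirror set, 7.78% of lung-accessible regions and 7.12% of all regions. Runx letters (AACCACA) stood in 132 members (17.5%, 14.9 to 20.4), compared with 9.58% of the mirror set, 8.15% of lung-accessible regions and 8.14% of all regions. GATA letters (AGATAA) stood in 128 members (17%, 14.4 to 19.8), with 10.6%, 9.15% and 10.3% in these sets. AP-1 or Runx letters stood in 35.9% of members and 14.6% of all regions. The intervals cover the sampling of regions only, and neighbouring regions are not independent.

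Since members are mostly distal, the shares were also read outside promoters. There, AP-1 letters stood in 21.7% of 723 members and 10.3% of 30887 lung-accessible regions, Runx letters in 17.8% and 10.5%, and GATA letters in 16.5% and 11.1%. ETS letters (AGGAAGT or CGGAAGT) stood in 14.5% and 13.7%. Median GC content was 46.2% in distal members and 47.4% in distal lung-accessible regions.

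Tcf7 letters (ATCAAAG or TTCAAAG) showed the reverse pattern, with 4.77% of members, 28.3% of the mirror set, 7.03% of lung-accessible regions and 8.84% of all regions. EGR letters (GCGTGGG) stood in 0.531% of members, 2.96% of the mirror set and 1.79% of all regions. The CTCF motif, which marks sites that anchor chromatin loops, stood in 0 of 754 members, for which the exact binomial interval allows up to 0.488%, and in 5.98% of distal lung-accessible regions. Of the mirror set 0.114% held it, and of all regions 2.91%.

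**Figure D5:**
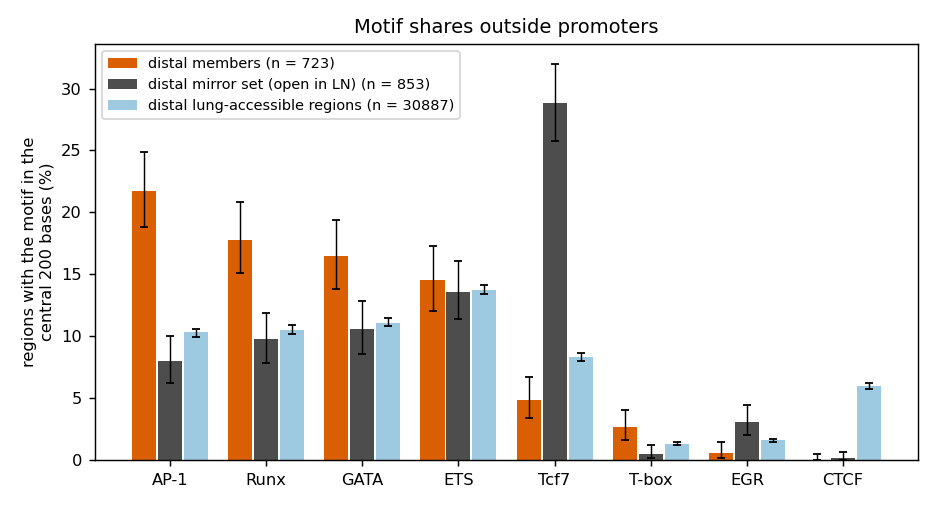
Share of regions outside promoters with each motif in the central 200 bases (%, y axis) for members (orange, n = 723), the mirror set (grey, n = 853) and lung-accessible regions (light blue, n = 30887), with exact 95% binomial intervals as bars. AP-1, Runx, GATA and T-box shares are highest in members, and the Tcf7 share is highest in the mirror set.

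The balance between the lung populations was also read by motif. T-box letters (AGGTGTGA) stood in 19 members (2.52%, 1.52 to 3.91), compared with 0.456% of the mirror set, 1.08% of lung-accessible regions and 1.16% of all regions. These 19 members had a median lung IL-4+ minus IFN-gamma+ difference of -0.76, and 4 of them (21.1%) were among the 27 called higher in IFN-gamma+ cells, against 3.13% of the 735 members without the letters. The 163 members with AP-1 letters had a median of 0.05 and 0 calls, and the 128 with GATA letters a median of 0.08 and 3 calls. With so few members holding T-box letters, these values are a description.

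At the edge of the rule, the member with the smallest margin was the *Serpina3g* promoter (chr12:104235784-104236889), which read 1.57 and 1.75 in the LN and 2.75 to 3.67 in the lung. The next members had margins of 1.00 by *Plekhd1* and *Myo15b*. Just outside were regions by *Jade2* and *Med12l*, with margins that round to 1.00. At *Jade2* the LN libraries read 0.74 and 0.46 and the lung libraries 1.74 to 2.88, next to those of the members inside. With the rule's contrast in the limma fit, 570 members (75.6%) were called higher in lung IL-4+ and 555 (73.6%) in lung IFN-gamma+ than in LN IL-4+ cells, where 1.05% and 2.17% of all regions were. These counts follow from the choice of members and both use the same LN libraries.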

How the data were processed

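The authors trimmed adapters, mapped reads to GRCm38/mm10 with Bowtie2 2.3.2, marked duplicates, removed mitochondrial, low-quality and blacklisted reads, called peaks with MACS2 2.1.1, merged summits into regions without the Y chromosome and normalized insertion counts with voom (limma 3.38.3). The deposited log2 values are insertions scaled to region length and library total. The 7 libraries came from a single experiment, so p-values measure the spread between these samples, which may be technical. The members and lists were chosen with earlier results of these data known. A linear model with a mean per population was fitted to all 113820 regions with limma 3.58.1 (lmFit, eBayes with trend) in R 4.3.3, with Benjamini-Hochberg adjustment, and was tested on simulated data. Regions named were the 10 with the largest margins, the 5 such promoters, the 5 with the largest called difference between lung populations, the member with the largest margin at up to 4 genes a list, and 3 on either side of the margin; the 10 genes with most members were named too. A region just outside the margin is not reported here. Genes were GENCODE M21 protein-coding genes. Insertion counts were rebuilt as ranks of tied values after removing length. Alternatives were the margin, floor, scaling, spread class, windows, gene flanks and each library left out.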

Additional observations from a re-analysis of the deposited data

Results flagged for a closer look

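The difference between lung and LN IL-4+ cells was larger for IFN-gamma+ than for IL-4+ lung cells in 27 members (3.58%). Of all regions 0.387% were called this way, by the test of the lung populations against each other. In that test the shared LN mean cancels. No member was called in the other direction with limma, where 0.108% of all regions were. At the same fold and an unadjusted limma p under 0.05, 0 of 754 members passed, against 1.44% of all regions. With the spread class as a covariate, 2 members were called, as were 0.501% of all regions. All lung IL-4+ libraries lay above both IFN-gamma+ libraries in 148 members, against 19.4% of all regions. The count was 0 without lung IL-4+ replicate 2 or either IFN-gamma+ library and 4 without lung IL-4+ replicate 3, in fits that called 0.000879%, 0.0% and 0.0351% of all regions. The difference at the member by *Dennd4a* stayed between -3.00 and -2.49 with a library left out. The part of the reporter line and of library spread in these differences was not tested.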

How the results depend on the processing

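The number of members, 754, became 2452 with a margin of 0.5, 39 with a margin of 2, 476 with a floor at density 10, 4748 by the difference of group means, 3075 with wide-spread libraries alone and 771 to 3110 with a library left out. Of the 27 calls toward lung IFN-gamma+ cells, 0 were made with the replicate block, with the block and GC, or with a test against a fold of 3, and 0 to 36 with a library left out. The calls toward lung IL-4+ cells rose from 0 to 2 with the spread class as a covariate, where 0.501% of all regions were called. Against the LN, the main fit called 1.05% of all regions higher in lung IL-4+ and 2.17% in lung IFN-gamma+ cells. Shares for the other fits against the LN are not given. The changes in those counts are therefore not read as changes of the members alone. The 570 members called in lung IL-4+ against LN cells became 372 with 2 populations at a time, 0 with the replicate block, 0 with block and GC and 0 against the fold, and 192 to 516 with a library left out. The 555 in lung IFN-gamma+ cells became 207, 257 and 0 in the last 3 of these settings and 69 to 567. Deviations of same-numbered samples correlated between -0.54 and 0.06. In a group of 2 libraries the deviations mirror each other, so these values cannot decide whether the numbers pair samples. The main fit did not pair them. The promoter share of 4.11% was 11.8% within 5 kb, 7.69% with a margin of 2 and 3.72% to 4.60% with a library left out. In 400 bases and in whole regions, AP-1 letters stood in 32.2% and 43.9%, Runx in 27.7% and 38.2%, GATA in 27.5% and 40.6% and Tcf7 in 10.9% and 21.1%. T-box letters stood in 5.44% of whole members, 4.86% of whole lung-accessible regions, 3.08% of the mirror set and 3.8% of all regions. In the central bases these shares were 2.52%, 1.08%, 0.456% and 1.16%. Members thus exceeded lung-accessible regions in T-box share by less over whole regions than in the central bases. With a margin of 2, T-box stood in 0.0% and Tcf7 in 2.56%. Leaving out libraries gave 20% to 25.2% for AP-1, 14.3% to 19.4% for Runx, 13.9% to 19.7% for GATA, 1.70% to 2.81% for T-box and 4.67% to 7.27% for Tcf7. The share at listed genes, 8.62%, was 14.7% by nearest start, 6.10% in gene bodies, 14.2% within 50 kb, 12.8% with a margin of 2 and 5.66% to 9.46% with a library left out. The cause of these changes was not tested. Rebuilt counts limit LN replicate 1 most.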

Other observations

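Chromosome X held 1 of the 754 members (0.133%), in an intron of *Sh3kbp1*, named after its values were seen. It held 1.70% of lung-accessible regions, 1.27% of those outside promoters and 0.798% of the mirror set. Chromosome 9, with the chemokine receptor cluster, held 9.42% of members and 5.75% of lung-accessible regions.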
